A study of Mus musculus with 12 samples.

Results

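In 8464 of 300608 merged regions of the mouse genome (GRCm38), at least 2 of 3 replicates of LPS-stimulated peritoneal macrophages had a FRA-1 peak. No replicate of unstimulated macrophages (UT) and none of macrophages given apoptotic cells (Apop) had a peak there. These LPS-only regions were chosen by this rule on their peak calls. By this rule 2.82% of all regions were LPS-only, and 200 of them, or 0.0665% of all regions, were called by all 3 LPS replicates. The same rule gave 239 UT-only regions (0.0795% of all regions, 2 of them in all 3 UT replicates) and 812 Apop-only regions (0.27%, 4 of them in all 3 Apop replicates). These counts follow from the rule and are given as a description, with no test. Without LPS replicate 1 the rule left 662 LPS-only regions, and without LPS replicate 3 it left 372. Most LPS-only regions were narrow and were shared by LPS replicates 1 and 3 alone, and most of the few that could be read in sequence held a long run of A or T.

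Peritoneal macrophages came from 8-week-old mice. The sample records give a 129/C57Bl6 background and cells harvested 72 h after 2.5 ml of 4% thioglycollate, while the design text names C57Bl/6 mice and a plain lavage. After a night in culture, the adherent cells were left untreated, or received either LPS or apoptotic cells (ratio 1:5), in both cases for 1 h. The design text gives 10 µg/mL LPS and the treatment protocol 1 µg/mL, so the dose is uncertain. Each condition had 3 replicates, the labels name the same 3 mice in all conditions, and 1 of the LPS records notes that its raw data are missing. FRA-1 was immunoprecipitated and the DNA sequenced in single reads of 100 bp. Replicates are numbered here by their column in the deposited tables, which name no mouse. A table of peaks shows no expression, so the cell type could not be checked against markers.

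FRA-1, encoded by Fosl1, is a FOS family member of the AP-1 transcription factors. It has a basic leucine zipper but no strong activation domain of its own, and it binds DNA as a dimer, mostly with a JUN protein, at the AP-1 motif or the related CRE motif. In macrophages LPS is sensed by TLR4, which switches on MAP kinases and NF-κB, and AP-1 proteins take part in the transcription of cytokine, protease and feedback genes that follows.

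The sequence under a region could be read only where the region met a RefSeq promoter window (250 bp before to 50 bp after a gene start, GRCm38.p6), since no genome was given. Of the 8464 LPS-only regions 38 met such a window, 14 of them lying wholly inside one. None of the 200 regions of all 3 LPS replicates met one. The sequences below show the bases before the gene start that a member covered, read in the direction of the gene (the + strand, but the − strand for Dcakd). They were chosen after the sequences were seen, to show the long runs, the motif matches and a member with neither. Capitals mark a run of at least 15 A or T, or a motif match. Gpbar1 encodes a bile acid receptor of macrophages (chr1:74278375-74278490, the whole member). Clec4a1 encodes a C-type lectin receptor of myeloid cells (chr6:122921722-122921832, the whole member). Rora encodes a nuclear receptor (chr9:68653680-68653785). Dcakd encodes a protein with a dephospho-CoA kinase domain (chr11:103017195-103017385, the whole member). Gm39853 is a predicted gene whose member held the AP-1 motif (chr2:75613221-75613332, the whole member). Fbxw9, an F-box protein gene, had the CRE motif (chr8:85059869-85060118). Ing3, which encodes a reader of methylated histone H3, had the CRE and the IRF motif (chr6:21949411-21949614), and its run of 18 T lies after the gene start and is not shown. Ogt, the gene of O-GlcNAc transferase, had neither a run nor a motif (chrX:101639801-101639890). All 8 were called by LPS1 and LPS3 and not by LPS2.
Gpbar1: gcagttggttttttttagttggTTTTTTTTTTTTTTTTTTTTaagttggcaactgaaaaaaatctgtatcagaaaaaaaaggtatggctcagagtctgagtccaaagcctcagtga
Clec4a1: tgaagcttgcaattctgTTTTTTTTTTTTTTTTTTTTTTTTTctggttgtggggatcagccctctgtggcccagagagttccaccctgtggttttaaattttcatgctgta
Rora: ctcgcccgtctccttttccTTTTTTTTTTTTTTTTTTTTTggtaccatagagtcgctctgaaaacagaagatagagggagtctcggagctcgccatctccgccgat
Dcakd: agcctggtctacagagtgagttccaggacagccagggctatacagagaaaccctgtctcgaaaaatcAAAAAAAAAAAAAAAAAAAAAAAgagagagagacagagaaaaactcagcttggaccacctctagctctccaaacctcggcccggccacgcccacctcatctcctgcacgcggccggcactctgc
Gm39853: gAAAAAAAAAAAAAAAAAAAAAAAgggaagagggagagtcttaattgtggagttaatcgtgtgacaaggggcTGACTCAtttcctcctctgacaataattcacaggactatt
Fbxw9: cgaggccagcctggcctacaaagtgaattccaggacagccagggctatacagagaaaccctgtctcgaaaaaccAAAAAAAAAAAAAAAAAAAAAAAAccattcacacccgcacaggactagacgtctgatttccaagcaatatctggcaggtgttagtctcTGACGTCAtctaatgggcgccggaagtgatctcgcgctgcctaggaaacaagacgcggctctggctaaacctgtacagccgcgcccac
Ing3: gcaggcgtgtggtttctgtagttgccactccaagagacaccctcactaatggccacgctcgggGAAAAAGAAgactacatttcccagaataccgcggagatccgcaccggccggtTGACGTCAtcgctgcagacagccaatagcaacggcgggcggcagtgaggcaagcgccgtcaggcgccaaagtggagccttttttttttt
Ogt: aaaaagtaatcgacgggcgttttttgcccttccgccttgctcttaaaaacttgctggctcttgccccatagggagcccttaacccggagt

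Of the members behind these sequences, those with a run scored 178.77 in LPS1 and 406.68 in LPS3 at Gpbar1, 112.61 and 182.13 at Clec4a1, 96.58 and 136.35 at Rora, 178.77 and 166.97 at Dcakd, 136.64 and 265.27 at Gm39853, 88.07 and 171.83 at Fbxw9, and 267.22 and 148.46 at Ing3. The member at Ogt, without one, scored 136.64 and 365.26. LPS3 had the higher score in 6 of these 8, and Dcakd and Ing3 were the exceptions.

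Long runs of A or T were the most frequent sequence feature found under the members. Of the 34 members with at least 50 bp inside a window, 24 (70.6%, 95% Wilson interval 53.8 to 83.2%) held a run of at least 15 A or T, against 14.9% (174 of 1167, interval 13.0 to 17.1%) of all regions read in the same way and 1.80% of all 32815 windows of 300 bp. The interval covers counting error only. The longest run in each of these 34 members ranged from 2 to 28 bases with a median of 20, against a median of 4 over all windows. All 14 members that lay wholly inside a window held such a run. So did all 13 such regions of at least 2 LPS replicates that a UT or Apop replicate also called, so this was not particular to the members. The count was 53 of 57 in regions of LPS3 alone and 92 of 292 in all regions. In 13 of the 14 members wholly inside a window the run lay on the side of lower coordinates, at a median of 26 bp from the member's centre. On the + strand 10 of the 24 runs were of A and 14 of T. Seen from the windows, members met 25 of the 591 windows with a run (4.23%, 95% Wilson interval 2.88 to 6.17%) and 18 of the 32224 windows without one (0.0559%, 95% Wilson interval 0.0353 to 0.0883%). Each single replicate also met a larger share of the windows with a run. These shares ran from 0.677% against 0.329% in UT1 to 30.1% against 0.394% in LPS3, so the direction was not particular to the members.

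The runs went with the replicates that called the regions. Over the peaks of each replicate with at least 50 bp inside a window, the share with a run was 70.7% in LPS3 (162 of 229), 31.8% in LPS1 (50 of 157) and 7.84% in LPS2 (12 of 153). It was 3.23%, 9.38% and 23.0% in UT1, UT2 and UT3, and 14.97%, 8.59% and 7.78% in Apop1, Apop2 and Apop3. LPS3 therefore stood above the other 8 replicates, and its interval (64.5 to 76.3%) met none of theirs. Regions called by LPS3 alone had a share of 67.6% (94 of 139), while those called by LPS1 alone had 2.08% (2 of 96) and those called by LPS2 alone 1.504% (2 of 133). Regions of LPS1 and LPS3, without LPS2, that a UT or Apop replicate also called had 60% (18 of 30), an interval of 42.3 to 75.4% that overlapped that of the members. The 2 members in windows that LPS2 had called, with either LPS1 or LPS3, held no run. Without LPS1, and likewise without LPS3, 1 LPS-only region with at least 50 bp in a window was left, and it held no run, so that no share can be read there. The part of the runs in the calls was not tested.

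**Figure D1:**
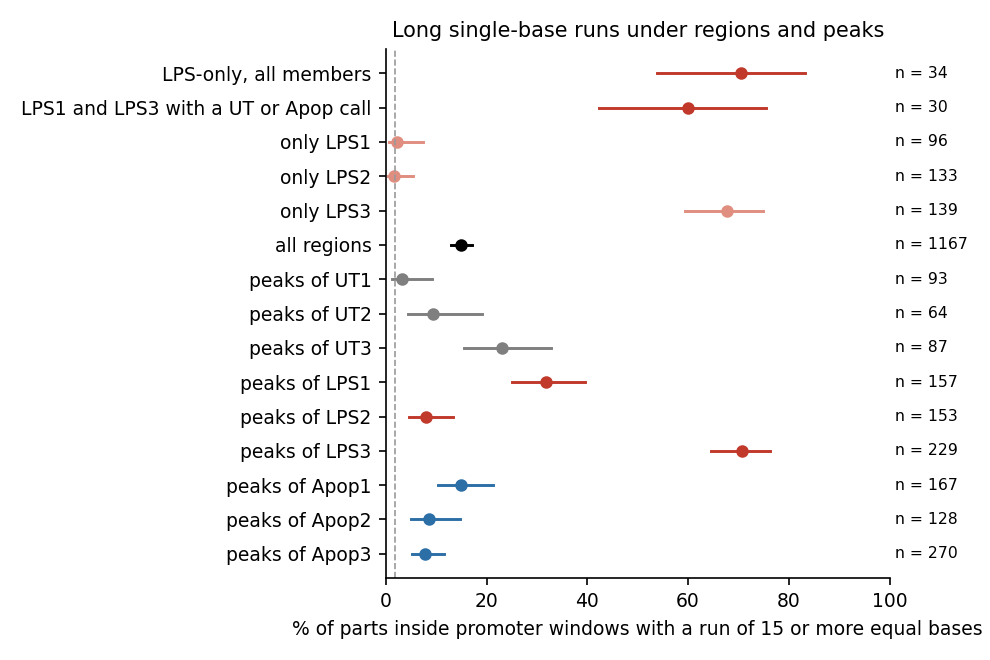
Share of regions and peaks that held a run of at least 15 A or T, over the parts of at least 50 bp inside promoter windows (x axis, percent), with 95% Wilson intervals as lines, the number of parts at the right, and the share of all windows (1.80%) as the dashed line. LPS-only regions (70.6%), regions of LPS3 alone (67.6%) and peaks of LPS3 (70.7%) lie far to the right of regions of LPS1 alone (2.08%) and LPS2 alone (1.504%).

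Motif matches were few. The AP-1 motif TGANTCA (N being C or G, both strands) was in 2 of the 43 windows that members met (4.65%, 95% Wilson interval 1.28 to 15.5%), against 5.20% of all windows. Without LPS1 it was in 0 of 3 windows and without LPS3 in 0 of 1, too few to read. Only the member at Gm39853 itself covered an AP-1 match. The CRE motif TGACGTCA was in 4 of the 43 windows (9.30%, interval 3.68 to 21.6%), against 1.79% of all windows, and 3 members, at Fbxw9, Ing3 and Rad51c, covered it. Ing3 has overlapping windows with the same match, so that these 4 windows are not independent. The PU.1 motif GAGGAAGT was in 4.65% of the windows met and 3.20% of all windows, the C/EBP motif TTGCNNAA in 11.63% and 10.8%, the IRF motif GAAANNGAA in 9.30% and 8.55%, and the κB motif in 4.65% and 4.50%. No interval but that of the CRE motif lay outside the share of all windows. The windows of Ing3 also count more than once for the IRF motif. These intervals take the 43 windows as independent, which overlapping windows of 1 gene are not, so the CRE share cannot be read as an excess. A match is a description of the letters and not a bound site.

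Which LPS replicates called the members was uneven. Of the 8464 members, 7627 (90.1%) were called by LPS1 and LPS3, 463 (5.47%) by LPS2 and LPS3, 174 (2.06%) by LPS1 and LPS2, and 200 (2.36%) by all 3. Members made up 17.4% of the regions LPS1 called and 13.2% of those LPS3 called, but 2.11% of those LPS2 called. Where LPS1 and LPS3 both had a peak, LPS2 also had one in 2.56% of the LPS-only regions (200 of 7827) and in 31.1% of the regions that a UT or Apop replicate also called (4174 of 13406). Among UT-only and Apop-only regions no pair of replicates took such a share: the most frequent pair was UT1 and UT2 with 39.7%, and Apop1 and Apop3 with 46.2%.

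**Figure D2:**
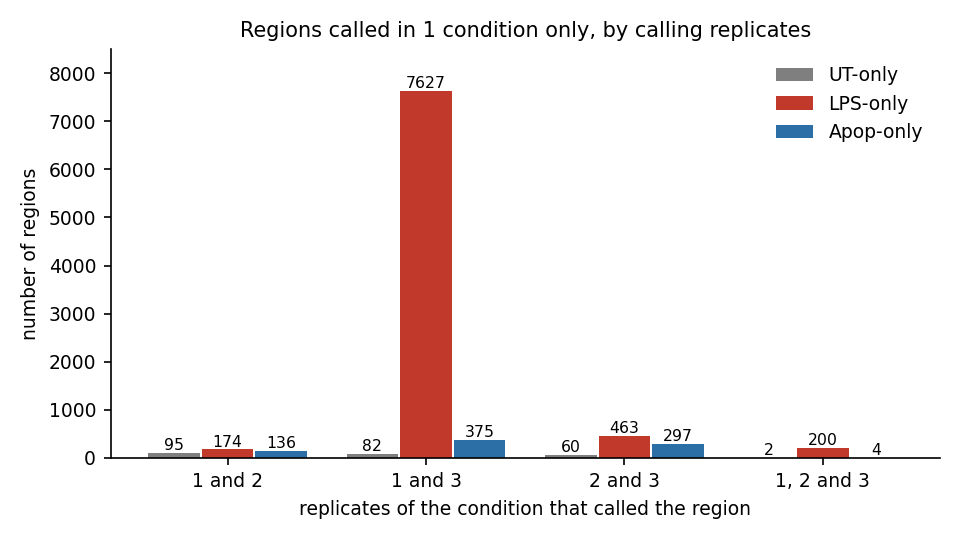
Number of regions (y axis) called in 1 condition only, by the replicates of that condition that called them (x axis). The bar for LPS replicates 1 and 3 stands at 7627, and no other bar exceeds 463.

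The replicates differed in the width of their peaks. The smallest peak was 108 bp in LPS1, 104 bp in LPS3, 116 bp in UT3 and 104 bp in Apop3, and 158 to 172 bp in the other 5 replicates, LPS2 among them. LPS was thus the only condition with more than 1 replicate of narrow peaks, and this class and the LPS pair cannot be told apart. Members had a median width of 117 bp, from 108 to 867 bp, against 192 bp over all regions. Those of LPS1 and LPS3 had a median of 115 bp and those of all 3 LPS replicates 233 bp. Without LPS1 the median was 284 bp, and without LPS3 it was 278 bp, both above the median of all regions. In the members 81.7% of the LPS1 peaks and 72.6% of the LPS3 peaks were 120 bp wide or less, against 49.9% and 67.9% of all peaks of these replicates. No LPS2 peak was so narrow, in members or elsewhere.

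Peaks of LPS1 and LPS3 ended at nearly the same bases. In members the starts and the ends of overlapping LPS1 and LPS3 peaks each differed by a median of 2 bp, and 64.6% of 7832 pairs lay within 5 bp at both ends. The share was 65.1% in regions that were not LPS-only, so that it was not particular to the members. Over all regions, pairs from different conditions came close to it, with 61.7% for LPS2 and Apop1 and 59.2% for UT2 and Apop2. Between LPS2 and the other LPS replicates the ends in members differed by medians of 60 to 61 bp, and 1.08% (LPS1) and 1.36% (LPS3) of the pairs lay within 5 bp at both ends.

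**Figure D3:**
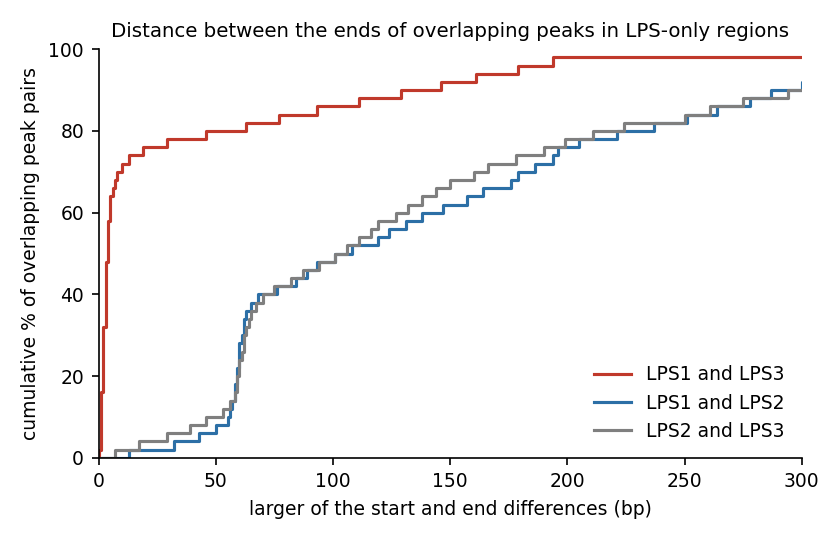
Cumulative share of overlapping peak pairs in LPS-only regions (y axis, percent) by the larger of their start and end differences (x axis, bp, shown up to 300), for each pair of LPS replicates. The line for LPS1 and LPS3 rises within the first few bases, and the other lines rise near 60 bp.

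The deposited scores, whose scale the sources used here do not state, decided the calls and are given as a description. In members the LPS1 scores ran from 51.45 to 484.05 with a median of 136.64, the LPS2 scores from 50.7 to 701.67 with a median of 107.8, and the LPS3 scores from 50.62 to 691.11 with a median of 226.93. Over all peaks of these replicates the medians were 136.64, 126.89 and 180.72. Many scores were tied: 2103 of the 8004 LPS1 peaks in members (26.3%) had the score 136.64. LPS3 scored higher than LPS1 in 85.3% of the 7827 members that both called and in 79.4% of the 13406 other regions that both called. Across those members the scores had a Pearson r of 0.33 and a Spearman rho of 0.33. Across the other regions of both they were 0.67 and 0.52, with both libraries in common at every point. Member scores ended at 484.05 in LPS1 and 691.11 in LPS3, while all peaks reached 3174.73 and 3100. The same scores decided the calls, and the ranges were unlike. The gap between these coefficients therefore cannot be read as weaker agreement of the replicates in members. Of the 1000 regions with the highest LPS3 scores, 57 were members and 329 were called by all 9 replicates. Over all 62885 regions that LPS3 called, 8290 (13.2%) were members and 1372 were called by all 9. Members were thus a smaller share at the top of the LPS3 scores than over all its regions. The rule removes every region with a UT or Apop call, so this follows from the rule and is no result about the members.

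Near its threshold the rule let in low scores and kept other regions out by 1 call. The lowest calling score of a member had a median of 136.64 and a range of 50.62 to 368.63. It was under 60 in 124 members, and 6315 members (74.6%) had at least 100 in every replicate that called them. Just outside stood 4349 regions with at least 2 LPS replicates and 1 UT or Apop replicate. That replicate was UT3 in 1301, Apop1 in 1258, Apop3 in 846, Apop2 in 700, UT1 in 131 and UT2 in 113. Its score had a median of 129.52, and 24.7% of these scores were under 100. Another 93807 regions had 1 LPS replicate and no other. The nearest UT or Apop peak lay a median of 4622 bp from a member, within 1000 bp in 14.01% of members, beside 4605 bp and 14.04% for regions of LPS3 alone.

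Among the 200 regions of all 3 LPS replicates, 12 stood first by the lowest of their 3 scores. The first, on chr17:85499042-85499216, scored 244.98 in LPS1, 250.6 in LPS2 and 344.84 in LPS3, and its nearest gene start was that of Six3os1, an antisense gene at Six3, at 119267 bp. The next, on chr7:16999191-16999371, scored 200.47, 207.88 and 513.21 and lay 5379 bp downstream of the start of Ccdc8. In the third, on chr11:30376874-30377291, the scores were 178.77, 176.35 and 208.17. None of these lay inside a gene of the RefSeq table.

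Of the other 9 strong regions of all 3 replicates, 5 lay inside a gene. One on chr6:31190438-31190841 was in Lncpint, a long noncoding RNA gene, with scores of 172.71, 190.48 and 211.41. One on chr15:37346387-37346561 was in Grhl2, which encodes an epithelial transcription factor, with 222.56, 166.55 and 344.84. One on chr5:91968018-91968252 was in Thap6, with 178.77, 207.88 and 164.81. LPS2 scored highest of the 3 replicates in Thap6 alone among these. One on chr1:43984939-43985115 was in Tpp2, which encodes a large peptidase, with 243.79, 160.5 and 467.64. The last of the 5, on chr2:131285322-131285808 in Pank2, a pantothenate kinase gene, scored 222.56, 169.06 and 226.93. The authors assigned it to Mir103-2, whose hairpin starts 2243 bp further on in the same direction. The main arm of this miRNA is shown with its seed (bases 2 to 8) in capitals, since it is the only miRNA among the strongest members.
mmu-miR-103-3p: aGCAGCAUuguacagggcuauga

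The other 4 lay outside genes on chromosomes 2, 4, 5 and 9, with lowest scores of 146.22 to 166.55. The 8 strongest members of exactly 2 replicates were all calls of LPS1 and LPS3, with LPS1 scores of 337.71 to 368.63 and LPS3 scores of 344.84 to 470.12. All 8 scored above the strongest region of all 3 replicates by their lowest score. The 2 sets are not alike here, since one takes the lower of 2 scores and the other the lowest of 3. In members of all 3, LPS2 scores had a median of 89.28, below 136.64 in LPS1 and 226.93 in LPS3. The 8 members were 115 to 128 bp wide but for 1 of 315 bp. Among them were members in Ttll5, a tubulin-modifying enzyme gene (chr12:85937828-85937944, 368.63 in LPS1 and 423.72 in LPS3), and in Bicd1, a dynein adaptor gene (chr6:149443341-149443464, 361.55 and 406.68). Phactr1, a phosphatase and actin regulator gene, had a member 14839 bp upstream of it (chr13:42665900-42666020, 361.55 and 470.12) and another inside it, 7466 bp upstream of a later start (chr13:42858724-42858838, 337.71 and 344.84).

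Members lay slightly more often near gene starts than regions did in general. Of 8164 members on chromosomes with listed starts, 565 (6.92%, 95% Wilson interval 6.39 to 7.49%) were centred within 2500 bp of a RefSeq gene start, against 5.57% of all regions (5.49 to 5.65%). The median distance was 34417 bp in members and 42096 bp in all regions. The share was 4.78% (2.69 to 8.36%) in UT-only, 5.25% (3.89 to 7.04%) in Apop-only and 5.80% (4.67 to 7.19%) in regions of all 9 replicates, and these intervals overlapped that of the members. In regions of at least 2 LPS replicates that a UT or Apop replicate also called it was 6.48% (6.07 to 6.92%). The share moved with the replicate: it was 6.63% (6.38 to 6.89%) in regions of LPS3 alone, 5.67% (5.37 to 5.97%) in those of LPS1 alone and 5.20% (4.96 to 5.45%) in those of LPS2 alone, so that members did not stand apart from LPS3. With the replicates of wide peaks alone, of which LPS has only LPS2, the share was 5.26%, below that of all regions. The part of the replicate in the members' share was not tested. Inside protein-coding genes lay 42.7% of the members (41.7 to 43.8%) and 41.6% of all regions (41.5 to 41.8%). The table used gives no exons, so exons and introns were not separated.

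**Figure D4:**
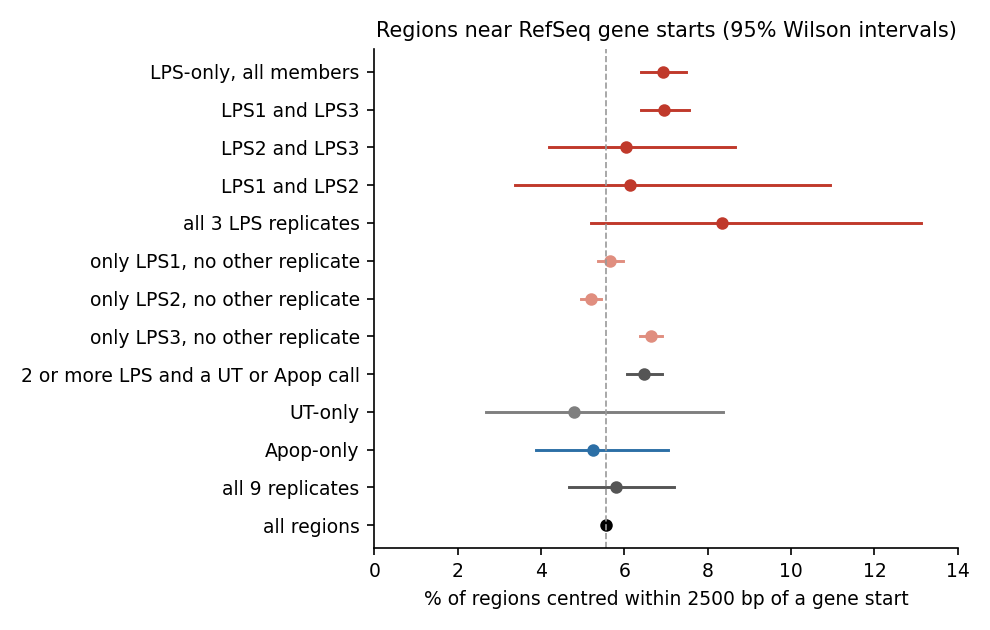
Share of regions centred within 2500 bp of a RefSeq gene start (x axis, percent), with 95% Wilson intervals (counting error only) as lines and the share of all regions (5.57%) as the dashed line. LPS-only regions lie at 6.92%, close to the regions of LPS3 alone at 6.63%.

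Chromosome Y held 146 members (1.72%), against 0.898% of all regions, and 139 of them were called by LPS1 and LPS3 only. This share was not particular to the members. Chromosome Y held 1.98% of regions of at least 2 LPS replicates that a UT or Apop replicate also called. It held 2.19% of regions of all 9 replicates and 1.99% of those of LPS3 alone. Of the regions each replicate called, chromosome Y took 1.90% in LPS3, 1.27% in LPS1 and 0.611 to 1.16% in the other 7. Chromosome X held 5.43% of members and 4.64% of all regions. It held 5.93% of regions of at least 2 LPS replicates that a UT or Apop replicate also called, and 6.20% of regions of all 9 replicates. On the other chromosomes members made up 2.39% (chromosome 14) to 3.10% (chromosome 5) of the regions.

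The authors assigned 623 members (7.36%, 95% Wilson interval 6.82 to 7.94%) to a gene, against 5.44% of all regions. In regions of at least 2 LPS replicates that a UT or Apop replicate also called, the share was 6.89% (6.48 to 7.33%). It was 6.69% in UT-only and 6.16% in Apop-only regions, and the intervals of these classes overlapped that of the members. The intervals for regions of all 9 replicates (5.47%) and of 1 LPS replicate and no other (5.85%) did not. With the replicates of wide peaks alone, where 1 LPS call was enough, the share was 4.96%, below that of all regions, which were built from all 9 replicates. Those 623 members named 674 genes, or 5.47% of the 12321 genes to which any region was assigned. No gene had more than 2 members, and 17 genes had 2. Ordered by their strongest member, the first of these were Stip1, a co-chaperone gene, Fndc7, Ccdc184, Rundc3a and Adam19, a membrane protease gene. At Stip1 the members lay 1287 bp and 2366 bp upstream of its start, with scores of 267.31 and 96.58 in LPS1 and of 429.41 and 365.26 in LPS3. At Adam19 one lay 548 bp upstream (LPS1 178.77, LPS3 226.93) and the other 4885 bp upstream (LPS2 207.88, LPS3 92.65).

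Of 320 genes in 12 lists of macrophage and LPS response pathways, 171 had a region assigned by the authors and 8 a member: Fosl2, Tnf, Cxcl12, Trib1, Trib3, Mmp14, Adamts4 and Mrc1. These 8 were 4.68% of the 171, beside 5.47% over all genes with an assigned region, so that the lists did not exceed the background. Among the genes with an assigned region, a member was assigned to 1 of 17 immediate early and AP-1 genes, 1 of 15 cytokines, 1 of 13 chemokines, 2 of 13 phosphatase and feedback genes, 2 of 11 protease and coagulation genes, and 1 of 12 macrophage lineage and surface genes. It was 0 of 18 NF-κB genes, 0 of 18 genes of LPS receptor and TLR signalling, 0 of 16 of the interferon response, 0 of 8 of eicosanoid synthesis, 0 of 15 of apoptotic cell uptake and 0 of 15 arginine, metal and antioxidant genes. Only Fosl2 had a member of all 3 LPS replicates. Without LPS1 the number of list genes with a member was 1, and without LPS3 it was 2.

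Fosl2 encodes FRA-2, the closest relative of FRA-1 in the FOS family. Its member on chr5:32135179-32135653 lay 1056 bp upstream of the start and scored 136.64 in LPS1, 63.81 in LPS2 and 123.61 in LPS3. The LPS2 peak was the widest of the 3 and the weakest. No UT and no Apop replicate had a peak there, and the other peaks in or near Fosl2, of LPS2, UT3, Apop2 and Apop3, lay inside the gene and were each of 1 replicate.

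Tnf encodes the early cytokine TNF. The member assigned to it, on chr17:35205750-35206011, scored 178.77 in LPS1 and 79.88 in LPS3 and was absent from LPS2. It lay 3873 bp upstream of the Tnf start but 529 bp upstream of that of Lta, the lymphotoxin alpha gene beside it, and the authors assigned it to Tnf, Lta and Mir6974 alike. Cxcl12, a chemokine that holds leukocytes in tissue, had a member 1613 bp upstream (chr6:117166867-117166977) with scores of 136.64 in LPS1 and 171.56 in LPS3. Its span was that of a single narrow peak.

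Trib1 and Trib3 encode pseudokinases that restrain kinase signalling. The Trib1 member on chr15:59646359-59646474 lay 2180 bp outside the gene and scored 200.47 in LPS1 and 344.84 in LPS3, the highest scores among these 8 genes. Trib3 had members 1044 bp and 2829 bp upstream of its start, both with 136.64 in LPS1 and with 226.93 and 208.17 in LPS3. Mmp14 encodes a membrane-bound matrix protease, and its member lay 3837 bp upstream, inside Mrpl52 (93.61 in LPS1, 125.31 in LPS3). Adamts4 encodes a protease that cuts aggrecan, and its member lay inside the gene (114.18 in LPS1, 304.61 in LPS3). Mrc1, the mannose receptor gene, had the only member among them without LPS3, 1191 bp upstream, with 136.64 in LPS1 and 126.89 in LPS2.

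Counted by distance, 58 of 316 list genes (18.4%) had a member in the gene or within 10000 bp of it, against 19.3% of all 21900 RefSeq protein-coding genes (4220 genes). The lists together were thus near the background. By list the share ran from 3.33% of chemokine genes (1 of 30) to 37.9% of apoptotic cell uptake genes (11 of 29), among them Abca1 and Abcg1 of cholesterol efflux, Elmo1 of engulfment and Pparg. Genes with a member were longer, with a median of 42684 bp against 17146 bp over all protein-coding genes, and the part of length in these shares was not tested. In the cytokine list 7 of 27 genes had a member within this distance, Il6, Il23a, Il27, Lif, Osm, Inhba and Tnf. Lif and Osm shared 1 member, and Il23a shared its member with Stat2 of the interferon list. Of 34 markers of other peritoneal cells (T and B cells, neutrophils, mast cells, mesothelial cells and fibroblasts), 5 had a member by distance, among them Cd4 and Lck of T cells and Pdgfra of fibroblasts, and 0 of 11 with an assigned region had an assigned member.

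The genes named in this paragraph were picked after their values were seen, to show members that lay near list genes without an assignment. Stat3, a transcription factor of cytokine signalling, had 3 members, all called by LPS1 and LPS3, of which those inside the gene scored 77.5 and 117.88 in LPS1 and 189.7 and 207.31 in LPS3. The other lay 9574 bp upstream, with 136.4 and 448.01. Mapk14, which encodes the p38α kinase, had a member 6767 bp upstream (136.64 in LPS1, 365.26 in LPS3) and another inside it (127.72, 245.7). Both genes therefore had members on either side of their starts. Irf5, an interferon regulatory factor gene, had a member inside it with 262.33 in LPS1 and 316.94 in LPS3. In Abcg1 the scores were 290.79 and 365.26, the highest LPS1 score among members at list genes with the shared member of Il23a and Stat2 (290.79 and 192.86). Tnip3, an inhibitor of NF-κB signalling, had 167.63 and 302.42 inside the gene. Jund, a JUN partner of FRA-1, had a member 5647 bp beyond its end (178.77, 208.17). LPS2 had no peak in any of these members. At Fcgr2b, which encodes the inhibitory Fcγ receptor, a member of all 3 LPS replicates lay 2941 bp outside the gene (chr1:170957263-170957617) with 83.44 in LPS1, 174.8 in LPS2 and 88.11 in LPS3. At Socs3, the feedback inhibitor of cytokine receptors, the calls were of LPS2 and LPS3 at 63.69 and 61.8, close to the lowest scores listed.

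Il6 and Lcn2, the genes the study followed, had no member assigned. The paper mapped the raw reads of this series anew and called its own peaks. From these and from ChIP-qPCR it reports FRA-1 at the promoters of both genes, especially after LPS. The peaks given here are the deposited calls and not those of that re-analysis. The Il6 member on chr5:30023135-30023385 lay 3160 bp beyond the end of the gene and scored 115.26 in LPS1 and 111.06 in LPS3. The peaks of LPS1 and LPS3 inside Il6 were not members because Apop1 had a peak there with a score of 84.61. Around Lcn2 no region within 10000 bp was a member, and each peak there was of 1 replicate. In the direction of transcription, the peak nearest its start was of UT1, at 133 to 345 bp, with a score of 229. The LPS peaks lay further away, at 4324 to 4515 bp in LPS1 (68.85) and at -7034 to -6926 bp in LPS3 (245.97).

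**Figure D5:**
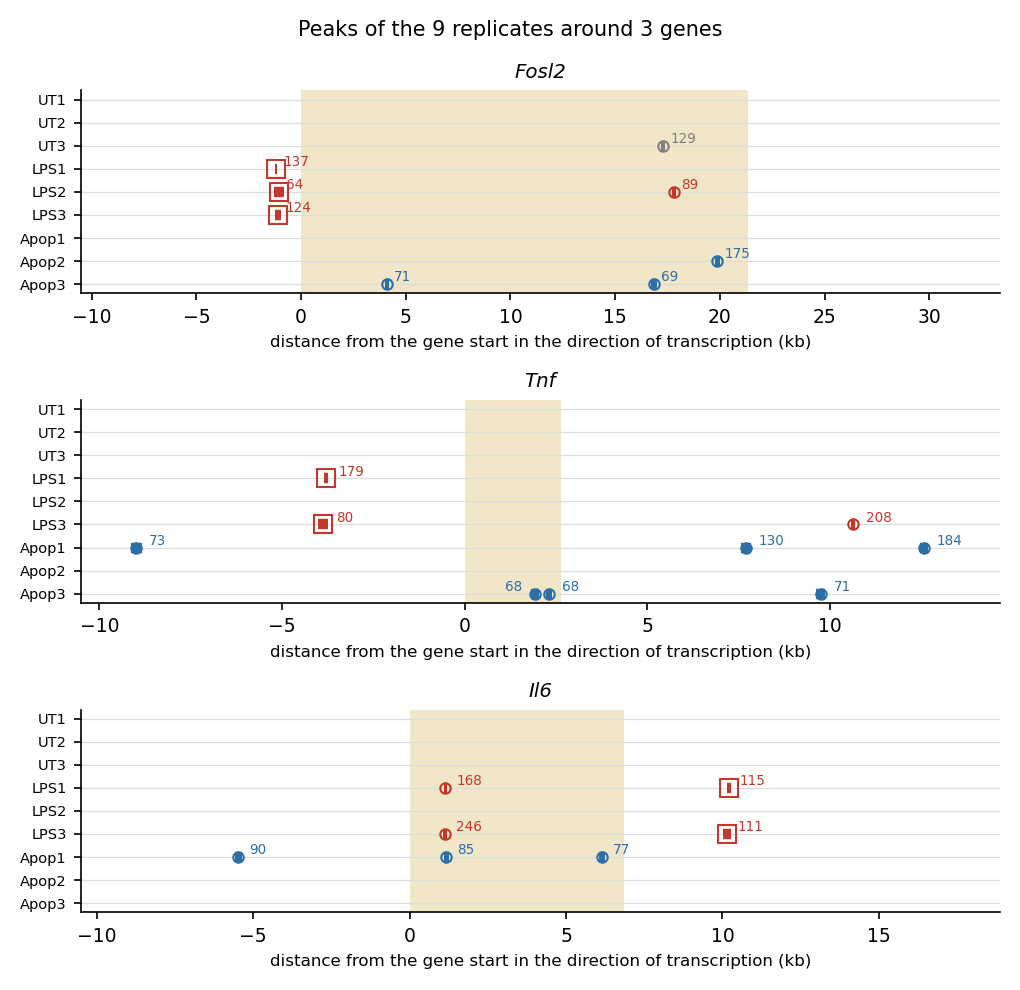
Peaks of each replicate (rows) around Fosl2, Tnf and Il6 by distance from the gene start in the direction of transcription (x axis, kb), with the score beside each peak, the gene shaded, squares for peaks in LPS-only regions and circles for other peaks. The squares at Fosl2 stand in all 3 LPS rows, and those at Tnf and Il6 in the rows of LPS1 and LPS3.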

How the data were processed

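The authors deposited 1 table per condition, in which the genome (mm10, GRCm38) is cut into segments and each of the 3 replicates has a peak score per segment, −1 where it has no peak. The lowest score is 50.01 and the scale is not stated. The submitters' processing notes name BWA 0.7.14 and bedtools. The peak caller is not given in the sources used here, and the 3 pooled inputs were not analysed here. The other deposited value, the number of replicates per segment, and the score sum were used in no result. Read depth is unknown.

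Segments of the 3 tables that overlapped or touched were merged (402253 segments, 300608 regions) with Python 3.11.15 and pandas 2.3.3, and a replicate called a region where any of its segments there scored at least 0. The merging was tested on simulated peaks. Distances run from region centres to the gene starts of RefSeq GRCm38.p6, and starts on chromosome 18 were not used here. Shares carry 95% Wilson intervals for counting error only. Regions are not replicates of a condition, so no test was run. Regions named were the 12 of all 3 and the 8 of exactly 2 LPS replicates with the highest lowest score, the 5 genes with the most members (ties broken by score), up to 4 genes per list with an assigned member, Il6 and Lcn2. The members and lists were chosen with earlier results of these data known, and the search for runs was added after the sequences were seen. The motif search around region centres needed a genome and was not run, and promoter windows took its place after the data were seen.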

Additional observations from a re-analysis of the deposited data

How the results depend on the processing

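No paired analysis was possible because no mouse is named for any column of scores. The number of LPS-only regions, 8464, was 372 (without LPS replicate 3) to 9764 (without UT replicate 3) with 1 replicate left out, 662 without LPS replicate 1, and 34939 with the wide replicates alone, of which LPS has only LPS2. The number called by every LPS replicate, 200, was 209 to 7830 with 1 replicate left out, 103 with a score of at least 100 required in every condition, 74 with this limit for LPS only, 10607 with the narrow replicates (LPS1 and LPS3) and 34939 with the wide ones. Leaving out 1 replicate gave 6.74 to 7.37% near a gene start, 7.22 to 8.60% assigned by the authors, median widths of 116 to 284 bp, median scores of 124.32 to 172.945, 1 to 10 list genes, and 0 to 75% with a run, where the 0% without LPS replicate 1 and without LPS replicate 3 each rest on 1 region. The AP-1 share of windows, 4.65%, was 0% of 3 windows without LPS replicate 1 and of 1 without LPS replicate 3. Wide replicates alone gave 5.26%, 4.96%, 211 bp, 23 list genes and 2.86% with a run. The share near a start was 2.65%, 13.05% and 22.8% for 1000, 5000 and 10000 bp, and 12.6% of all members had a RefSeq start within 5000 bp. List genes with a member numbered 58 with 10000 bp on either side and 1 with regions of all 3 LPS replicates. The run share was 73.5% and 58.8% for runs of at least 10 and 20 bases and 100% for members wholly inside a window. These run settings and the removal of chromosome Y, which moved no result, were chosen after seeing the data. Some differences from all regions turned: the width was above the 192 bp of all regions without LPS replicate 1 or 3. With wide replicates alone, the shares near a start and assigned were below the 5.57% and 5.44% of all regions, which were built from all 9 replicates. In that setting 1 LPS call, of LPS2, was enough, so it does not keep the rule of at least 2 LPS replicates. The remaining settings for merging, overlap and score moved no other result. The searches in sequence around region centres and the split into exons and introns were not run. The causes of these shifts were not tested, read depth is unknown, and the sequence results rest on 34 of 8464 members.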
